A study of Sus scrofa with 6 samples.

Results

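The BCL2 family and the caspases that act with it were described in immature pig Sertoli cells, the epithelial nurse cells of the seminiferous tubule. The family was fixed by symbol as 9 genes, and the Ensembl identifiers of 6 of them were matched in a table of 20731 genes, of which 13173 carried a symbol. The 6 were BCL2L1, BAK1, BID, BBC3, PMAIP1 and CASP8. MCL1, BAX and BCL2L11 were not analysed here. The only caspase among the members was CASP8, an initiator, so of the executioner caspases CASP6 was read from a separate list of the pathway.

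RNA was sequenced from 3 libraries labelled Control and 3 labelled MT. MT cells received 10 nM melatonin, the night-time hormone of the pineal, over 36 h, and no agent, solvent or time is given for the Control cells. All libraries came from the same labelled cell type, with no genetic change stated, and no label states if replicates were separate cultures or animals. Each p-value therefore covers only how far these libraries vary, and that variation may be technical.

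The BCL2 family decides whether the outer membrane of the mitochondrion stays closed. Survival members such as BCL2L1 (BCL-XL) and MCL1 bind and hold back the pore formers BAX and BAK1 and the BH3-only proteins, which are small sensors of stress. When enough BH3-only proteins are made or activated, the pore formers open the membrane, cytochrome c leaves, the APAF1 apoptosome switches on CASP9, and CASP9 cuts the executioner caspases. Death receptors enter the same route through CASP8, which cuts BID into its active form. Much of this control acts on proteins, by cleavage, phosphorylation and degradation, and RNA levels do not measure it. Sertoli cells set how many germ cells a testis can carry, and many germ cells that they support die by apoptosis in the young testis.

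Levels were read as FPKM, which scales the reads of a gene to its length and to the library. Levels can be set side by side between genes only as far as the counted lengths hold. Library totals were 19579279 to 21500665 reads, and the 6 members rested on 195 reads (PMAIP1 in MT 3) to 4780 reads (BCL2L1 in MT 3) per library. All 6 had a mean of at least 1 FPKM and were tested among 10950 genes. Of the Sertoli markers, WT1 stood at 10.0 to 12.8 FPKM, AMH at 11.3 to 15.6 and SOX9 at 1.61 to 2.40 over the 6 libraries. Others of that list were low, with TF at 0.16 to 0.48 and DHH, INHA and NR5A1 below 0.1 in every library. GATA4 and PTPRC were not analysed here. The germ cell marker DDX4 reached at most 0.035 FPKM, the myoid marker ACTA2 0.208 and the endothelial marker PECAM1 0.311. Other genes of these lists were higher, with TAGLN at 153.7 to 256.9 FPKM and DES at 5.55 to 9.43 among the myoid markers, EGFL7 at 1.38 to 3.44 among the endothelial and UCHL1 at 0.66 to 1.35 among the germ cell markers. The macrophage list held CD14 at 6.21 to 8.30 and CD68 at 3.18 to 5.30. STAR, a marker of Leydig cells, stood at 2.12 to 2.68.

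Control 3 stood apart from the other 5 libraries. It held the highest or the lowest value of the 6 libraries in 74.2% of the tested genes, against 10.2% to 37.3% for each other library. Relative to the mean of Control 1 and Control 2 it was shifted by a median of 0.154 on the log2 scale in the third of genes with the shortest counted lengths and by -0.186 in the third with the longest. Across genes, which are not independent, the deviation from that mean had a Spearman rho with counted length of -0.20 in Control 3, -0.16 in MT 1, -0.03 in MT 2 and -0.12 in MT 3, so the comparisons without Control 3 carry such a trend as well. The part of length in the results was not tested. Deviations from the group means, which cancel within a group, were also correlated across genes between the groups. Control 3 correlated by 0.49 with MT 1, 0.34 with MT 3 and -0.63 with MT 2. MT 2 correlated by 0.50 with Control 1 and 0.63 with Control 2. The part of this shared pattern in the comparisons without Control 3 was not tested. Each member is given with and without Control 3, and several other genes are given only with it. In bulk RNA, fewer cells of a type and less RNA per cell cannot be told apart.

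Whether apoptosis genes differ in Sertoli cells after melatonin was read from MT against Control. No measured member differed between the groups by more than the spread between libraries. In limma on log2(FPKM + 1), with Benjamini-Hochberg adjustment over all tested genes, 0 of the 6 members passed an adjusted p of 0.05, against 0 of 10950 genes (0.0%). Before adjustment, 0 members and 517 genes had a p under 0.05, and limma voom on the recovered reads also passed 0 genes, with 495 under that p. The 3 MT values overlapped the 3 Control values in every member. The groups did not overlap in 11.2% of tested genes, and 0 of the 6 members lies near that share. The median difference of the 6 members was -0.12 on the log2 scale, beside 0.02 over all tested genes, with 2 members higher in MT and 4 lower.

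The members fell into 4 steps of level that held in every library. BCL2L1 was the most abundant, with a mean of 59.5 FPKM over the 6 libraries, and its lowest value of 50.6 lay above the highest value of any other member. BAK1 came next with a mean of 20.7 FPKM. CASP8, BBC3 and PMAIP1 followed with means of 8.04, 6.74 and 5.92 FPKM, and their ranges overlapped, so their order was not resolved. BID was the least abundant with a mean of 2.28 FPKM, and its highest value of 3.21 lay below the lowest PMAIP1 value of 3.49. This rank rests on counted lengths of 9480 bases for BID and 2694 for PMAIP1. In reads, BID was above PMAIP1 in Control 3 (637 against 236) and in every MT library, and below it in Control 1 and Control 2.

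**Figure D1:**
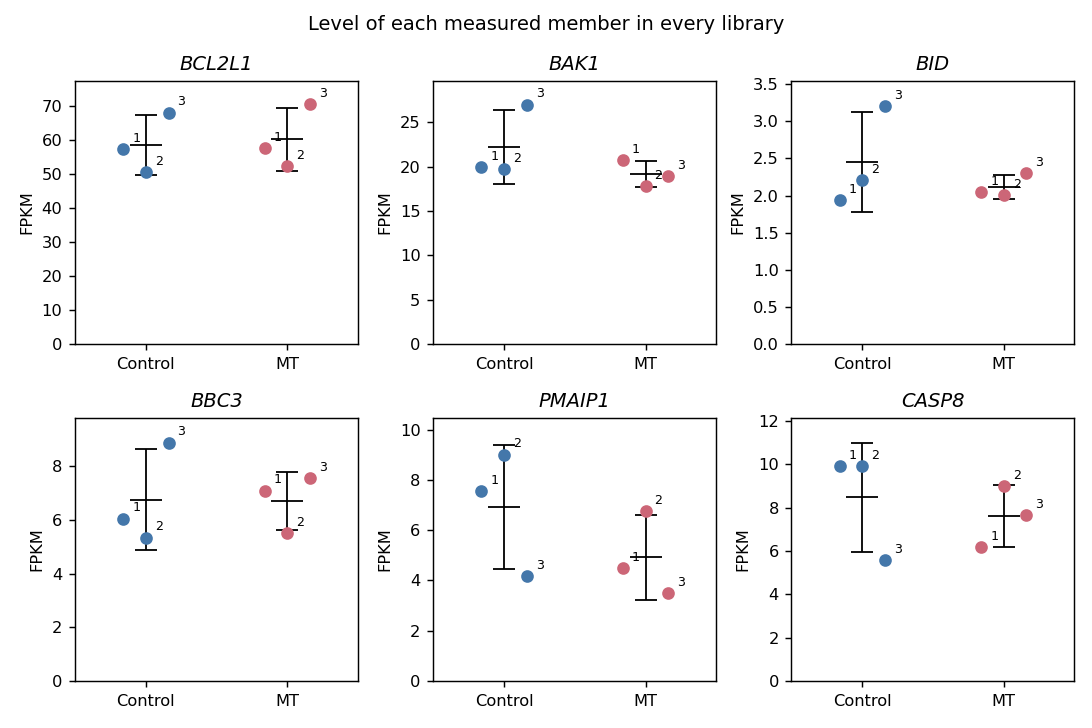
FPKM of the 6 measured members in each library. Points are libraries with their replicate number, the long bar is the mean of the 3 libraries of a group and the whiskers are 1 SD. The groups overlap in every member, and Control 3 lies away from Control 1 and Control 2 in each.

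Of the survival genes among the fixed members only BCL2L1 was measured, and BCL2L2 is described below with the rest of the family. BCL2L1 (ENSSSCG00000035357, chromosome 17, 35366139 to 35415798 on Sscrofa11.1) stood at 57.5, 50.6 and 68.1 FPKM in Control 1 to 3 and at 57.7, 52.5 and 70.7 in MT 1 to 3. Both groups ran from about the same low value to about the same high value, with replicate 2 lowest and replicate 3 highest in each. Replicate numbers carry no order, and no label states if they pair the libraries. The difference was 0.04 on the log2 scale (SE 0.16, limma adjusted p 0.9998). Its 95% interval ran from -0.34 to 0.42. Without Control 3 the difference was 0.15 (adjusted p 0.43), and the sign turned when Control 2 (-0.06) or MT 3 (-0.08) was left out.

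Of the pore formers among the fixed members BAK1 was measured. BAK1 (ENSSSCG00000001516, chromosome 7, 29808849 to 29815345), which forms oligomers in the outer mitochondrial membrane, stood at 19.9, 19.7 and 27.0 FPKM in Control and at 20.8, 17.8 and 18.9 in MT. Control 3 was the highest of the 6 libraries, and the other 5 lay between 17.8 and 20.8. The difference was -0.19 on the log2 scale (SE 0.15, 95% interval -0.55 to 0.17, limma adjusted p 0.9998). Without Control 3 it was -0.05 (interval -0.24 to 0.15, adjusted p 0.69). The level of BCL2L1 relative to BAK1, as a ratio of FPKM, was 2.88, 2.57 and 2.53 in Control and 2.78, 2.95 and 3.74 in MT. These ratios overlapped between the groups, and MT 3 was the highest.

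Of the BH3-only members, BID, BBC3 and PMAIP1 were measured, and PMAIP1 had the largest difference of the 6 members. PMAIP1 (NOXA; ENSSSCG00000026454, chromosome 1, 161184458 to 161188138) is induced by cell stress, and its protein binds mainly MCL1. It stood at 7.56, 9.01 and 4.18 FPKM in Control and at 4.49, 6.76 and 3.49 in MT. Control 1 and Control 2 lay above all MT libraries, and Control 3 lay below MT 1 and MT 2. The difference was -0.40 on the log2 scale (SE 0.30, 95% interval -1.11 to 0.30, limma adjusted p 0.9998).

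Without Control 3 the PMAIP1 difference was -0.68 (SE 0.21, interval -1.19 to -0.18), with an unadjusted p of 0.016 and an adjusted p of 0.073 in limma. It was negative under each of the 15 alternatives of the comparison over 6 libraries, as was the BAK1 difference. These alternatives reuse the same libraries and are not independent. Among the fits with a library left out, PMAIP1 ran from -0.21 without Control 2 to -0.68 without Control 3. By limma voom on recovered reads without Control 3, PMAIP1 fell by 0.80 with an adjusted p of 0.029 and was the only member to pass, in a fit that passed 21.6% of all tested genes.

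BBC3 (PUMA; ENSSSCG00000003112, chromosome 6, 53037103 to 53046902), also induced by stress, binds all the main survival proteins. It stood at 6.05, 5.34 and 8.89 FPKM in Control and at 7.10, 5.50 and 7.56 in MT. Control 3 was the highest library and Control 2 the lowest, so the MT values lay inside the Control range. The difference was 0.01 on the log2 scale (SE 0.20, 95% interval -0.46 to 0.48, limma adjusted p 0.9998). Without Control 3 it was 0.20 (interval -0.11 to 0.51, adjusted p 0.30), and it was negative with any of Control 1, Control 2, MT 1 or MT 3 left out.

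BBC3 and PMAIP1 lay on opposite sides in Control 3. Relative to the mean of Control 1 and Control 2, Control 3 was 0.56 higher in BBC3 and 0.84 lower in PMAIP1 on the log2 scale. The FPKM ratio of BBC3 to PMAIP1 was 0.80, 0.59 and 2.13 in Control and 1.58, 0.81 and 2.16 in MT. Control 1, Control 2 and MT 2 were low in this ratio and the other 3 libraries were high.

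BID (ENSSSCG00000000769, chromosome 5, 69849007 to 69874647), the substrate of CASP8 that links death receptors to mitochondria, stood at 1.93, 2.20 and 3.21 FPKM in Control and at 2.04, 2.003 and 2.30 in MT. Control 3 was again the highest, and the other 5 libraries lay close together. The difference was -0.13 on the log2 scale (SE 0.16, 95% interval -0.51 to 0.25, limma adjusted p 0.9998) and turned to 0.02 (interval -0.21 to 0.26, adjusted p 0.89) without Control 3.

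CASP8 (ENSSSCG00000028157, chromosome 15, 104923659 to 104948470) stood at 9.91, 9.92 and 5.58 FPKM in Control and at 6.16, 8.996 and 7.67 in MT. Control 1 and Control 2 were nearly equal and above every MT library, and Control 3 was the lowest of all. The difference was -0.11 on the log2 scale (SE 0.23, 95% interval -0.67 to 0.45, limma adjusted p 0.9998). Without Control 3 it was -0.36 (SE 0.14, interval -0.68 to -0.03), with an unadjusted p of 0.035 and an adjusted p of 0.11. It was 0.01 without Control 1, without Control 2 or without MT 1.

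**Figure D2:**
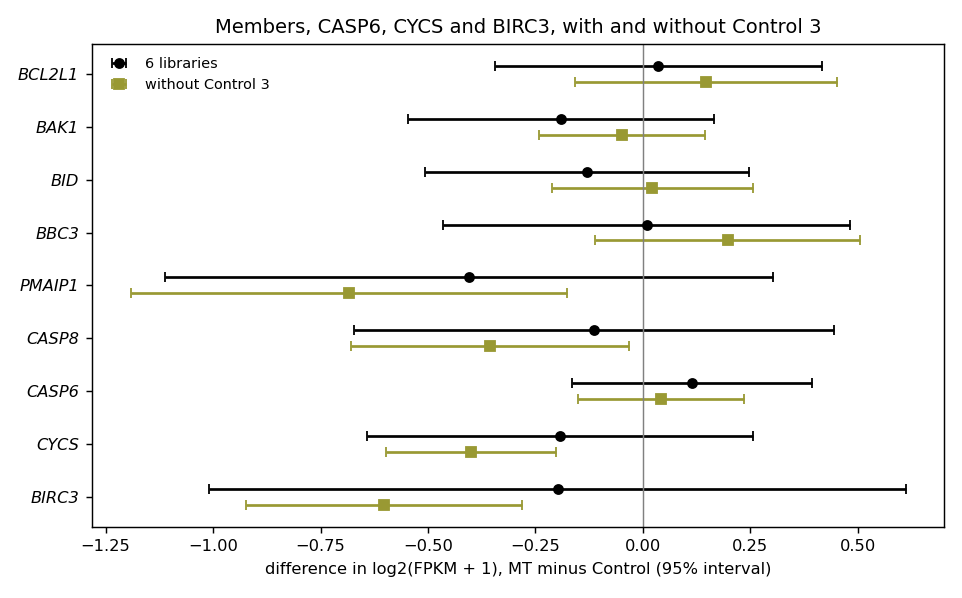
Difference in log2(FPKM + 1), MT minus Control, for the 6 members, the executioner caspase CASP6, and CYCS and BIRC3, which are shown because they passed without Control 3, with all 6 libraries (circles) and without Control 3 (squares). Whiskers are 95% intervals from limma, not adjusted for the number of genes. With 6 libraries every interval spans 0, and without Control 3 those of PMAIP1, CASP8, CYCS and BIRC3 lie below 0.

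Without Control 3, 0 of the 6 members passed in limma, in a fit that passed 10.9% of all tested genes, 4.28% upward and 6.62% downward. Of the members, PMAIP1 and CASP8 had MT values that lay wholly on 1 side of Control 1 and Control 2, below them in both cases, where the groups did not overlap in 56.2% of all tested genes (25.9% with MT higher and 30.3% with MT lower). With MT 2 also left out, 3 members passed, PMAIP1 (-0.90) and CASP8 (-0.47) downward and BBC3 (0.32) upward, in a fit that passed 40.6% of all tested genes. That fit sets Control 1 and Control 2 against MT 1 and MT 3, which lie on opposite sides of the shared pattern described above. Group and shared pattern cannot be told apart in it. Without Control 3 alone the median difference of the members was -0.013, beside -0.0037 over all tested genes. Control 3 held the highest value in 3 members (BAK1, BID and BBC3) and the lowest in CASP8, so that it was extreme in 4 of 6, against 74.2% of all tested genes.

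Apart from the members, 70 genes of the pathway were listed in 11 groups by role, of which 53 were matched and 41 tested. Over 6 libraries 0 of the 41 passed in limma, 23 were higher in MT and 18 lower, and 2 had an unadjusted p under 0.05. The median difference was 0.029 on the log2 scale, close to the 0.02 of all tested genes. The groups did not overlap in 5 of the 41 (BCL2L2, BMF, DIABLO, DFFB and TMBIM6), against 11.2% of all tested genes. Without Control 3, 0 rose and 2 fell, CYCS and BIRC3, where 10.9% of all tested genes passed. With MT 2 also left out, 14 of the 41 passed, where 40.6% of all tested genes did. Group and shared pattern cannot be told apart there. With MT 1 or MT 3 left out instead, 0 passed, where 27 and 198 of all tested genes did. By limma voom on recovered reads without Control 3, 9 of the 41 passed, where 21.6% of all tested genes did. BMF, BOK, TMBIM6 and BAG6 rose there, and CYCS, BIRC3, XIAP, CFLAR and BNIP3L fell, of which BAG6 and BNIP3L are named after their values were seen.

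The executioner caspases dismantle the cell by cutting structural and repair proteins. CASP6, the executioner reported here, stood at 6.22, 5.66 and 4.97 FPKM in Control and at 6.19, 6.41 and 5.84 in MT. The groups overlapped, with Control 3 the lowest of the 6 libraries, and the difference was 0.11 on the log2 scale (SE 0.12, 95% interval -0.16 to 0.39, limma adjusted p 0.9998). The difference without Control 3 was 0.04 (adjusted p 0.73). Among the other caspases, CASP9, which the apoptosome activates, had a mean of 2.76 ± 0.34 FPKM in Control and 2.84 ± 0.23 in MT (SD, n = 3), and CASP2 had 10.2 ± 0.74 and 9.37 ± 0.33.

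Other members of the BCL2 family were placed beside the measured ones by level. BAD, a BH3-only protein that growth factor signalling holds inactive, had a mean of 32.2 FPKM over the 6 libraries, more than BAK1, and was named here for that level after the values were seen. BCL2L13 had 27.7, BOK, a relative of BAX and BAK1, 16.6, and BCL2L2 (BCL-W), a survival protein, 12.4. BCL2A1 was below 0.2 FPKM in every library and was not tested. BMF, a BH3-only protein released from the cytoskeleton, had the smallest p of the family over the 6 libraries. It stood at 4.97, 4.45 and 5.16 FPKM in Control and at 6.52, 5.64 and 6.30 in MT, and the groups did not overlap. Its difference of 0.29 on the log2 scale (SE 0.11) had an unadjusted p of 0.039 and an adjusted p of 0.9998 in limma. Without Control 3 it was 0.32 with an adjusted p of 0.059. BCL2L2 differed by 0.09, with MT higher in all 3 libraries. BOK stood at 13.3, 13.3 and 21.7 FPKM in Control and at 17.7, 15.3 and 18.6 in MT, with Control 3 the highest. The BOK difference was 0.12 on the log2 scale over the 6 libraries (limma adjusted p 0.9998) and 0.34 without Control 3 (adjusted p 0.055).

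**Figure D3:**
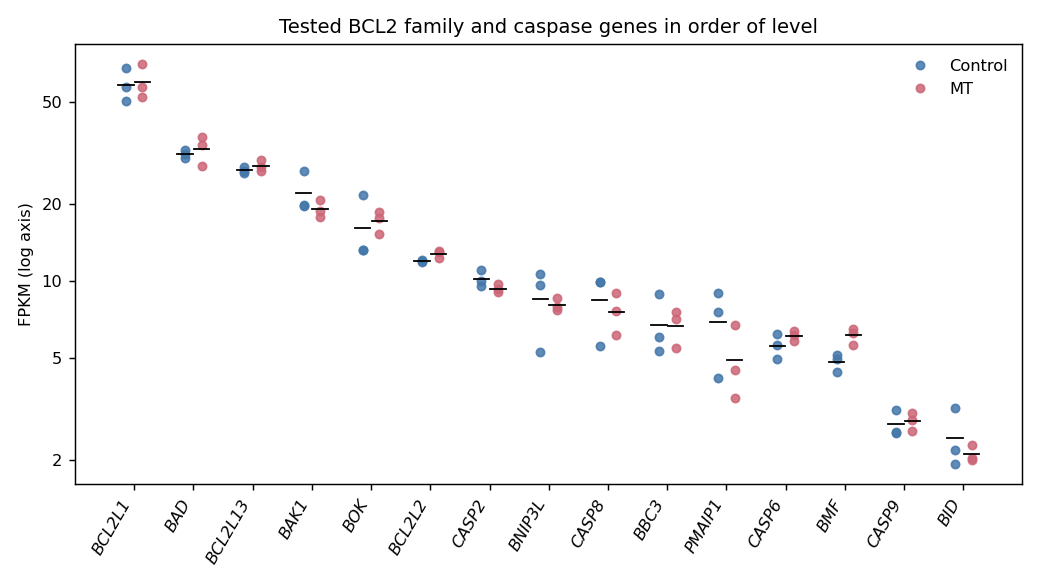
FPKM on a log axis of the 15 tested BCL2 family and caspase genes, ordered by the mean over the 6 libraries. Points are libraries and short bars are group means. BCL2L1 is highest and BID lowest, and Control 3 lies away from Control 1 and Control 2 in BOK, BNIP3L and CASP8.

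Downstream of the pore formers, CYCS, the gene of cytochrome c, stood at 36.5, 38.0 and 23.9 FPKM in Control and at 27.4, 30.6 and 26.1 in MT. Control 3 was the lowest library, and without it CYCS fell by 0.40 on the log2 scale (SE 0.08, limma adjusted p 0.037). With all 6 libraries the difference was -0.19 and did not pass. DIABLO, which frees caspases from their inhibitors, had 16.6 ± 0.99 FPKM in Control and 14.6 ± 0.84 in MT (SD, n = 3), with all MT values lower and an unadjusted p of 0.13 in limma. The endonuclease gene ENDOG had 5.71 ± 2.28 and 4.74 ± 1.22.

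The inhibitors of apoptosis, which bind caspases or tag proteins with ubiquitin, held 2 genes, BIRC3 and XIAP, that varied widely inside the Control group. BIRC3 (cIAP2), a ubiquitin ligase of the tumour necrosis factor receptor complex, stood at 14.6, 15.6 and 5.94 FPKM in Control and at 8.56, 11.8 and 8.71 in MT. Without Control 3 it fell by 0.60 (SE 0.14, limma adjusted p 0.042), and with all 6 libraries the difference was -0.20 (SE 0.34) and did not pass. XIAP, which inhibits the executioner caspases and CASP9 directly, stood at 13.5, 12.7 and 4.34 FPKM in Control and at 9.06, 12.01 and 8.33 in MT, and passed in neither fit. BIRC6 had 16.5 ± 2.54 and 16.7 ± 0.82. Control 3 was the lowest library in all 3 of these genes.

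In the death receptor group, which feeds CASP8, TNFRSF1A had 31.6 ± 6.55 FPKM in Control and 32.8 ± 1.07 in MT (SD, n = 3). The TNFRSF1A difference was 0.07 on the log2 scale over 6 libraries and 0.23 (limma adjusted p 0.061) without Control 3. The adaptor TRADD had 6.72 ± 0.35 and 6.54 ± 0.34. CFLAR, the inhibitor that pairs with CASP8 in the receptor complex, stood at 6.10, 5.92 and 3.84 FPKM in Control and at 4.40, 4.95 and 4.87 in MT. As for CASP8 itself, Control 1 and Control 2 lay above all MT libraries and Control 3 was the lowest. Its difference was -0.11 on the log2 scale over 6 libraries and -0.29 (limma adjusted p 0.060) without Control 3. None of the 6 tested genes of this group passed in either fit.

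TMBIM6 (BAX inhibitor 1), a membrane protein of the endoplasmic reticulum, had the smallest p of the 41 pathway genes with all libraries. It stood at 109.7, 103.4 and 88.7 FPKM in Control and at 122.3, 132.0 and 124.1 in MT, with no overlap. The difference was 0.33 on the log2 scale (SE 0.11, 95% interval 0.06 to 0.60), with an unadjusted p of 0.025 and an adjusted p of 0.91 in limma. Without Control 3 it was 0.24 with an adjusted p of 0.059. In the same group the channel VDAC1 had 94.3 ± 7.0 and 88.6 ± 1.12 FPKM and the chaperone partner BAG1 36.3 ± 3.51 and 38.0 ± 1.44 (SD, n = 3), and neither passed.

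Among factors that switch BH3-only genes on, E2F1 had 13.2 ± 2.16 FPKM in Control and 11.5 ± 0.79 in MT (SD, n = 3), TP73 had 8.09 ± 2.12 and 7.27 ± 1.24, and FOXO1 11.11 ± 0.48 and 10.7 ± 0.31. Control 3 was the highest library in these 3 genes, and 0 of the 4 tested factors passed in either fit. In the list drawn up for turnover of MCL1 and BH3-only proteins, FBXO7 had 8.02 ± 1.04 and 9.40 ± 0.47, and BTRC 4.10 ± 0.74 and 4.70 ± 0.45. The ubiquitin ligase HUWE1 of that list had 35.6 ± 3.31 and 37.8 ± 0.58. Whether the listed genes act on these proteins here was not tested. In the group of DNA breakage, DFFB, the nuclease that executioner caspases release, had 4.18 ± 0.62 and 3.50 ± 0.11 with all MT values lower, its inhibitor DFFA 3.40 ± 0.40 and 3.72 ± 0.39, and PARP1 32.9 ± 1.61 and 33.7 ± 1.04. None of these passed in either fit.

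**Figure D4:**
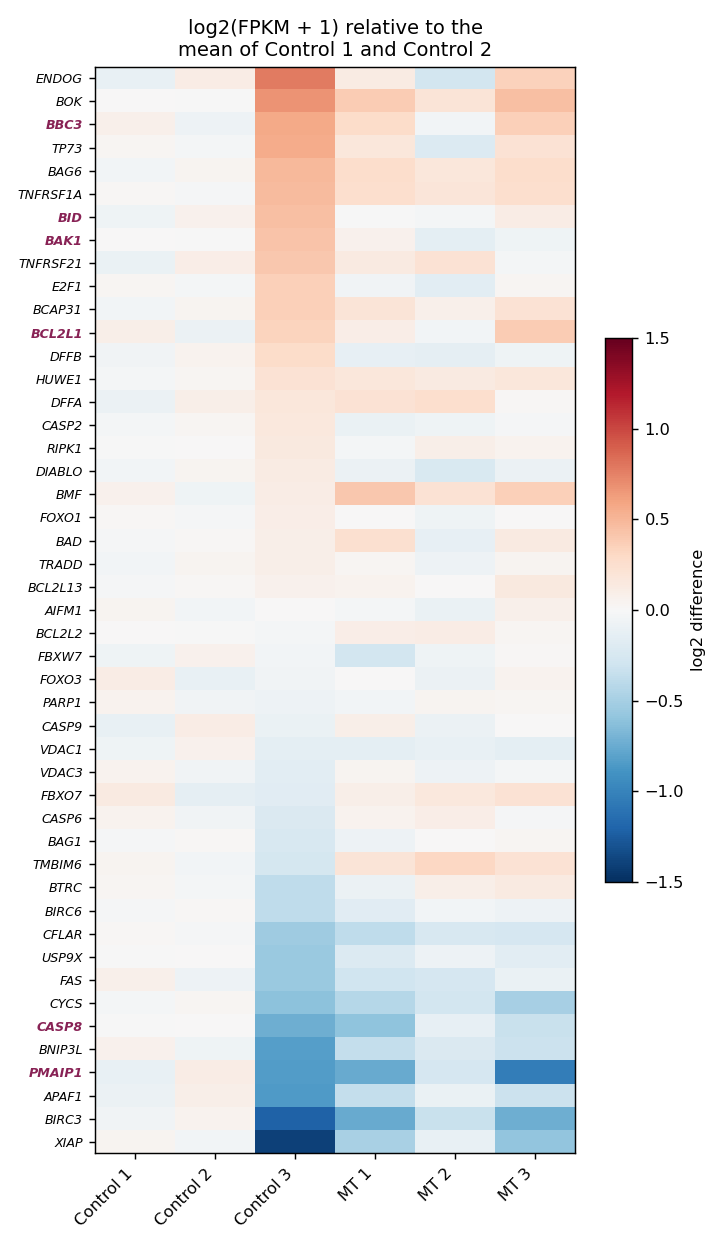
log2(FPKM + 1) of the 6 members (bold) and the 41 tested pathway genes in each library, relative to the mean of Control 1 and Control 2, with genes ordered by Control 3. Red is higher and blue lower. Control 3 spans the widest range, from 0.78 in ENDOG to -1.40 in XIAP.

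Genes with the most similar pattern over the 6 libraries were found for each member by the root mean square difference between centred log2(FPKM + 1) values, as a description. For BCL2L1 these were B4GALT3 (0.021) and HOXA3 (0.038), where BCL2L1 itself varied by 0.18 around its mean. For BAK1 they were AARS2 (0.022) and SUV39H1 (0.028), for BID HARS1 (0.024) and SLX4 (0.025), and for BBC3 ARHGEF10L (0.016) and PKIG (0.021). The nearest genes to PMAIP1 had larger differences, SGO1 (0.093), which guards the cohesion of chromosomes in division, and EREG (0.097), a growth factor. PMAIP1 itself also varied more than the other members, by 0.42. For CASP8 they were TRMT10C (0.047) and CGRRF1 (0.049). No other apoptosis gene of the lists was among these 12.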

How the data were processed

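The authors deposited FPKM for 6 libraries, each in its own column. HISAT2, featureCounts, Subread and bcl2fastq, and the build Sscrofa11.1, are credited to the submitters' processing notes, and versions, annotation release, strand setting and filters were not stated in any source at hand. The members and gene lists were chosen with earlier results of these data known. Symbols were matched by Ensembl identifier, and positions by symbol in the RefSeq annotation of Sscrofa11.1.

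FPKM steps gave library totals, and reads were whole within 0.01 for 100.0% of the 10950 genes tested. Where all 6 read numbers of a gene have a common divisor, the recovered reads may be too few.

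The test was limma 3.58.1 (R 4.3.3) on log2(FPKM + 1) for genes averaging at least 1 FPKM (two-sided, with a variance trend and no covariate, Benjamini-Hochberg adjustment, threshold 0.05). This scale understates changes of low genes. Alternatives were pseudocounts, filters, scalings, no trend, a replicate block, voom on recovered reads and leaving out libraries. Pathway genes were named as up to 3 with the smallest p of each list, those called without Control 3, and the executioner caspases. The nearest 2 genes were named for each member. Python 3.11.15 was used for tables and plots. Some genes of the pathway are not reported here.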

Additional observations from a re-analysis of the deposited data

How the results depend on the processing

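Under 15 alternatives of the comparison over 6 libraries, 0 members passed, and of 89 member values 78 kept their direction and 11 changed sign. One BID value is lacking because a filter of 5 FPKM removed the gene. With a library left out, the log2 differences were -0.082 to 0.15 for BCL2L1, -0.27 to -0.05 for BAK1, -0.24 to 0.022 for BID, -0.12 to 0.20 for BBC3, -0.68 to -0.21 for PMAIP1 and -0.36 to 0.013 for CASP8. BBC3 also turned to -0.0059 with median scaling. The cause was not tested. Leaving out a library gave 0 to 1194 genes and 0 to 2 pathway genes, and only leaving out Control 3 gave any.

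Without Control 3, the 1194 genes became 8 with no filter on low values, 2367 by voom and 8 to 4451 with another library left out (22 without Control 1, 8 without Control 2, 27 without MT 1, 4451 without MT 2 and 198 without MT 3). The share that rose was 469 of 1194, and 663 of 1333 after quantile normalisation. Members called were 1 by voom (PMAIP1) and 0 to 3 with another library left out. The 3 came without MT 2, where PMAIP1 (-0.90) and CASP8 (-0.47) fell and BBC3 (0.32) rose while 40.6% of all tested genes passed. In that fit the group and the pattern shared between libraries cannot be told apart. The 2 pathway genes that passed without Control 3 became 9 by voom, 4 (2 upward) after quantile normalisation, 0 with no filter on low values, 14 (8 upward and 6 downward) without MT 2 and 0 without any of the other 4 libraries. With 1 Control library left, its spread is assumed to be that of the other group.

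No label states if replicate numbers pair the libraries. Deviations from the group means correlated by -0.44 across genes for replicate 1, 0.63 for replicate 2 and 0.34 for replicate 3. These values cannot decide it, since the deviations within a group of 3 sum to 0. With a replicate block 0 genes passed, and PMAIP1 had a difference of -0.40 (SE 0.14, limma adjusted p 0.9997). Without the block the SE of PMAIP1 was 0.30, and the block lowered the SE of every member. Each member had at least 195 reads in each library.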

Other observations

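Added up after the values were seen, the 3 BH3-only members BID, BBC3 and PMAIP1 summed to 15.6, 16.6 and 16.3 FPKM in Control. Their MT sums were 13.6, 14.3 and 13.4. The BH3-only genes BAD and BMF, measured as well, were left out. BAD stood at 30.3, 31.3 and 32.7 FPKM in Control and at 36.5, 28.1 and 34.1 in MT. BMF was higher in every MT library than in any Control library. The sums of the 3 members did not overlap between the groups, although each of the 3 genes did. Among single tested genes, the groups did not overlap in 11.2%. Within Control the low PMAIP1 of Control 3 stood beside its high BBC3 and BID. BCL2L1 relative to this sum was 3.70, 3.06 and 4.19 in Control and 4.23, 3.68 and 5.29 in MT, which overlapped. These are descriptions of 6 libraries, with no test.

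Markers of other cell types were summed per library. The 6 myoid markers summed to 160.7 to 265.4 FPKM in Control and 162.2 to 194.6 in MT, nearly all of it TAGLN, with DES at 5.55 to 9.43 and MYH11 below 0.05 throughout. The 5 macrophage markers summed to 9.80 to 12.4 and 11.9 to 13.4, carried by CD14 and CD68, with CD163 at or near 0. CD68 stood at 4.14, 3.18 and 3.87 FPKM in Control, and its MT values of 5.30, 4.503 and 4.66 were all higher, with an unadjusted p of 0.051 in limma (adjusted p 0.9998), and of 0.027 (adjusted p 0.096) without Control 3. The 3 endothelial markers summed to 1.64 to 3.60 and 2.49 to 3.22. EGFL7 among them was highest in Control 3, and its difference over 6 libraries was 0.21 on the log2 scale (limma adjusted p 0.9998). Without Control 3 it rose by 0.48 (adjusted p 0.047), in a fit that passed 10.9% of all tested genes. The sums were 0.78 to 1.39 and 1.28 to 1.53 for the 4 germ cell markers, and 3.85 to 4.35 and 3.74 to 4.87 for the 3 Leydig markers. The 10 Sertoli markers summed to 5569 to 6606 and 6579.6 to 6948, nearly all of it CLU and VIM. The part of these markers in the results was not tested.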
